A study of Mus musculus with 12 samples.

Results

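The genes described here are 9 markers of young neurons and their precursors in the subventricular zone, the germinal layer that lies along the lateral ventricle next to the caudate putamen. They are Nes, Sox4, Sox11, Dlx1, Dlx2, Dcx, Tubb3, Igfbpl1 and Cd24a, and they were taken by symbol from a table of 54833 genes. All 9 had enough reads to be tested, among 21495 genes that did. They were measured by RNA-seq in 12 samples of the right caudate putamen of wild-type male C57BL/6 mice, 24 h after surgery. The 4 groups were young sham and young ICH mice of 8 to 10 weeks, and aged sham and aged ICH mice of 20 to 22 months, with 3 samples each. ICH mice received type IV collagenase, an enzyme that opens small vessels and so causes intracerebral hemorrhage (ICH), and sham mice received saline through the same needle track. The tissue lay around the hematoma or was the matching tissue of sham mice. Each sample pooled 2 to 3 mice, so that the errors below are errors between pools. The totals of counted reads lay between 28410896 and 37785160 per sample, and the level of a gene is given as CPM, its reads relative to the library total after scaling of the libraries to one another.

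Neuroblasts are born throughout life from astrocyte-like stem cells of the subventricular zone, pass through a dividing intermediate stage and migrate along a glial path to the olfactory bulb. After a stroke in rodents some of them can leave this path and enter the injured striatum. Several of the 9 genes are not particular to neuroblasts. Nes encodes nestin, an intermediate filament of stem cells that reactive astrocytes and vessel cells also make, and Tubb3 encodes a tubulin of neurons of all ages. Cd24a encodes a surface protein that ependymal cells carry as well, the ciliated cells that line the ventricle. The genes thus sample several cell types of a dissected tissue, and in such bulk samples fewer cells of a type and less RNA per cell cannot be told apart.

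Of the 9 genes 5 passed the test in young ICH vs. young sham mice, and the stretches of sequence just before their start sites are shown here because these genes moved in different directions. Each is the 150 bases before the RefSeq start site, on build GRCm38.p6, written 5′ to 3′ on the strand of the gene. Capitals mark 4 short motifs on either strand, with no overlap between marked stretches. They are CCAAT, where NF-Y can bind, the GC box GGGCGG, where Sp1 can bind, the TATA box TATAAA, and CATTGT, which many SOX proteins recognise.
Nes, chr3:87970943-87971092, plus strand: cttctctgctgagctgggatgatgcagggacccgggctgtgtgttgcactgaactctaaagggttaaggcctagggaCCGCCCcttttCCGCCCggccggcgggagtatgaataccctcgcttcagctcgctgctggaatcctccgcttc
Sox4, chr13:28953700-28953849, minus strand: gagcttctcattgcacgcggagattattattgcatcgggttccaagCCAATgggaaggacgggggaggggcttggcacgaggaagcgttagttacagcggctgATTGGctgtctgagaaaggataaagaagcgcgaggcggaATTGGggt
Sox11, chr12:27342719-27342868, minus strand: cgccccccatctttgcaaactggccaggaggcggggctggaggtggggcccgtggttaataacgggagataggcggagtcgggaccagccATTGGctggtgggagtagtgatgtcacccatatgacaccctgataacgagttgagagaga
Dcx, chrX:143933220-143933369, minus strand: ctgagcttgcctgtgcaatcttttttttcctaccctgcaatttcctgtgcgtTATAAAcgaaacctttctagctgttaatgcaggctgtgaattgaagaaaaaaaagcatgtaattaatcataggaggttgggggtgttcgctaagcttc
Tubb3, chr8:123411403-123411552, plus strand: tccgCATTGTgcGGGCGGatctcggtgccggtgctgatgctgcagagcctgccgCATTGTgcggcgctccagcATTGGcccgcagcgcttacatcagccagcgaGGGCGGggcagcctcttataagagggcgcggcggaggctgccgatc
The window of Sox4 held CCAAT 3 times and that of Sox11 once. The window of Nes held GGGCGG 2 times, and that of Dcx, shown for the first of its 2 RefSeq start sites, held TATAAA once and had the fewest G and C of the 5, with 40.7%. The window of Tubb3 held CATTGT 2 times, the GC box 2 times and CCAAT once, and 68.0% of it was G and C. Among 32817 mouse promoters, the window of this length held CCAAT in 24.5%, the GC box in 28.6%, the TATA box in 7.58% and CATTGT in 6.42%. Sequences were given for 7 of the 9 genes, and Igfbpl1 and Cd24a were not among them. Of the 4 motifs searched, none was in the windows of all 3 genes that rose or of both that fell, and a match of letters is a description and not a binding site.

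Levels per transcript length, in FPKM (fragments scaled to transcript length and to mapped reads), placed Tubb3 far above the other 8 genes in each of the 4 groups. In young sham mice Tubb3 lay between 130 and 147 FPKM. The next was Dlx1 at 4.84 to 5.79, followed by Cd24a at 2.54 to 5.69, Dcx at 2.69 to 3.66 and Sox11 at 2.67 to 3.47. Below them came Nes at 2.43 to 2.62, Sox4 at 1.27 to 1.54, Dlx2 at 1.15 to 1.37 and Igfbpl1 at 0.372 to 0.489. Of these neighbours, Dlx1 and Cd24a, Cd24a and Dcx, Dcx and Sox11, and Sox4 and Dlx2 overlapped between the 3 samples. In aged ICH mice Nes had moved to the second place, at 13.0 to 22.3 FPKM, with Tubb3 at 107 to 113 and Igfbpl1 still lowest at 0.120 to 0.715. By its mean Nes was second in young ICH mice too, at 12.7 FPKM before Cd24a at 9.81. The same held in aged sham mice, at 5.54 FPKM before Dlx1 at 5.11, and in both groups the samples of the 2 genes overlapped. The plot of FPKM shows that Nes was the gene with the widest shift between groups.

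**Figure D1:**
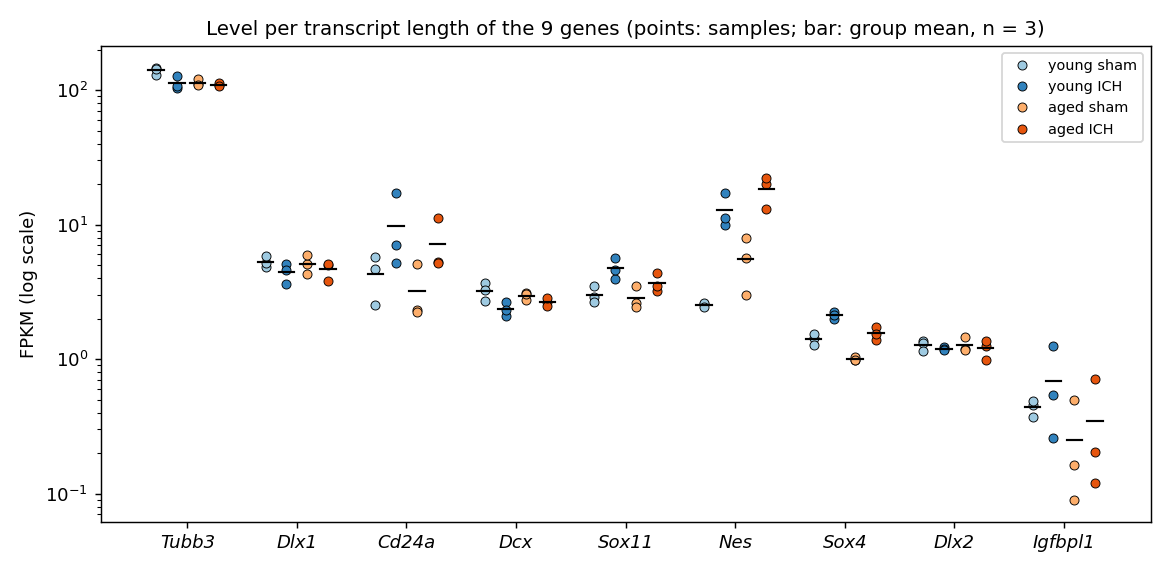
FPKM of the 9 neuroblast genes on a log axis, with 1 point per sample, colors for the 4 groups and a bar for the mean of 3 samples. Tubb3 stood at 103 to 147 FPKM in all 12 samples and Igfbpl1 at 0.0895 to 1.25, and the points of Nes spread from 2.43 in young sham to 22.3 in aged ICH mice.

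The response to ICH was examined first in young mice. In young ICH vs. young sham mice, 5 of the 9 genes passed an adjusted *P* of 0.05 (edgeR's quasi-likelihood test with Benjamini-Hochberg adjustment over all genes tested), against 19.1% of all genes. Nes, Sox4 and Sox11 were upregulated (9.89% of all genes were) and Dcx and Tubb3 were downregulated (9.23% of all genes were). In aged ICH vs. aged sham mice, 2 of the 9 passed, against 13.2% of all genes. Nes and Sox4 were upregulated (7% of all genes were), and 0 of the 9 were downregulated by edgeR or DESeq2, also at an unadjusted *P* under 0.05 (6.15% of all genes passed after adjustment). Samples of the 2 groups did not overlap for 6 of the 9 genes in young mice, against 35% of all genes, and for 4 of the 9 in aged mice, against 35.1%. A further criterion, FC > 1.5 or FC < 0.67 with an unadjusted *P* under 0.05, was applied to the edgeR values. By it 2 of the 9 (Nes and Cd24a) would be counted in young mice, against 12.2% of all genes, and 1 (Nes) in aged mice, against 10.1%. Both comparisons are set out below by the role of each gene, from the stem cell to the young neuron.

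Nes showed the highest change of the 9. It was at 17.2, 17.6 and 16.2 CPM in the young sham samples and at 63.1, 71.6 and 106 CPM in the young ICH samples. In aged mice it was at 36.9, 19.7 and 51.2 CPM after sham surgery and at 124, 80.1 and 139 CPM after ICH. Every ICH sample lay above every sham sample of its age, and the aged sham samples spread more widely (SD 15.8 CPM) than the young sham samples (SD 0.753 CPM). The log2FC was 2.24 ± 0.32 (SE; adjusted *P* = 0.00187) in young mice, a 4.71-fold rise, and 1.67 ± 0.31 (adjusted *P* = 0.00823) in aged mice, a 3.18-fold rise, both by edgeR. Leaving out any 1 sample of the 2 groups compared left the log2FC between 1.99 and 2.38 for young and between 1.37 and 2.01 for aged mice, always past the threshold.

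The markers of reactive astrocytes rose after ICH as Nes did. All 12 genes of that list, among them Gfap, Vim, Timp1 and Hspb1, were upregulated in both ages, with a median log2FC of 2.32 in young and 2.03 in aged mice (0.02 and 0.00 over all genes). Their summed level was 810 to 1158 CPM in young sham and 2610 to 3944 CPM in young ICH mice, and 606 to 1554 CPM in aged sham and 2813 to 3577 CPM in aged ICH mice. Within groups, the order of the 3 samples by Nes was that of this sum in 1 of 4 groups and the opposite in 1 of 4. The highest library was shared in 2 of 4 groups and the lowest in 2 of 4. In the aged sham group, replicate 2 had both the lowest Nes level and the lowest summed level of this list. Of 10 endothelial genes 6 rose in young and 4 in aged mice (9.89% and 7% of all genes did), for example Cdh5 with a log2FC of 0.77 and 0.72. Of 8 pericyte genes, Pdgfrb alone passed at either age, close to those shares, with a log2FC of 0.57 and 0.36. The part of these cells in the change of Nes was not tested.

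Among the other genes of stem cells, 3 of 12 were upregulated in young mice, with 0 downregulated, against 9.89% and 9.23% of all genes. They were Sox9, a factor of stem cells and astrocytes, with a log2FC of 0.81 ± 0.15 (SE), the Notch target Hes1 with 0.54 ± 0.11, and Id3, an inhibitor of differentiation, with 0.56 ± 0.15. Hes5, of the same list, had lower means after ICH and passed at neither age. It went from 2.39 to 1.31 CPM in young and from 3.00 to 1.94 CPM in aged mice. Sox9 (0.57 ± 0.15) and Hes1 (0.49 ± 0.11) passed in aged mice too, and Prom1, a membrane protein of stem cells and ependymal cells, fell by 0.45. The radial glia gene Fabp7, at 14.6 ± 1.73 CPM (SD, n = 3) in young sham and 16.4 ± 3.47 in young ICH mice, passed in neither age. The median log2FC over the 12 genes was 0.25 in young and 0.12 in aged mice.

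Of 12 genes of the dividing stage between stem cell and neuroblast 11 were tested, Gsx2 being too low. In young mice 1 rose and 1 fell, so that 2 of 11 passed, close to the 19.1% of all genes, and the one that rose was Mcm2, a DNA replication factor (log2FC 0.61 ± 0.19 SE). In aged mice 1 of 11 rose and 0 fell, against 7% and 6.15% of all genes, so that the list was close to these shares. The 1 gene was the mitotic cyclin Ccnb1, from 0.252 ± 0.116 to 1.04 ± 0.581 CPM (SD, n = 3). Its level in aged sham mice was very low, so the size of this difference is not firm. The proliferation marker Mki67 was at 7.06 ± 1.03 CPM in young sham, 8.14 ± 3.16 in young ICH, 3.78 ± 1.23 in aged sham and 7.12 ± 3.04 in aged ICH mice, and passed in neither comparison.

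Sox4 and Sox11 encode related SoxC transcription factors that turn on genes of young neurons, among them Tubb3 and Dcx in other systems. Sox4 was at 7.18, 6.38 and 7.69 CPM in young sham and at 10.5, 9.42 and 9.93 CPM in young ICH mice. It was at 4.83, 5.09 and 4.76 CPM in aged sham and at 8.06, 6.40 and 7.13 CPM in aged ICH mice. At each age the ICH samples lay above the sham samples with no overlap, and the aged ICH samples stood at about the level of the young sham samples. The log2FC was 0.49 ± 0.12 (SE; adjusted *P* = 0.0138) in young and 0.56 ± 0.12 (adjusted *P* = 0.0132) in aged mice, a 1.41-fold and a 1.47-fold rise. Without young sham replicate 2 the young change was 0.42 (adjusted *P* = 0.0661, edgeR), and without aged ICH replicate 1 the aged change was 0.47 (adjusted *P* = 0.0662).

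Sox11 was at 30.1, 25.3 and 23.1 CPM in young sham and at 45.9, 32.6 and 37.0 CPM in young ICH mice, again with no overlap. It was at 22.1, 29.3 and 20.4 CPM in aged sham and at 25.6, 34.9 and 28.2 CPM in aged ICH mice, where the groups overlapped. The log2FC was 0.56 ± 0.17 (SE; adjusted *P* = 0.0405) in young and 0.30 ± 0.17 (adjusted *P* = 0.268) in aged mice. This was the least firm of the calls, since it was lost when any 1 of 6 of the 12 libraries was left out of the fit (replicates 1 and 3 of young ICH, 2 and 3 of young sham, 3 of aged ICH and 1 of aged sham), with a log2FC of 0.41 and an adjusted *P* of 0.140 (edgeR) without young ICH replicate 1. The difference between the ages was not past the threshold either (interaction −0.25 ± 0.24, unadjusted *P* = 0.311, adjusted *P* = 0.9999 by edgeR).

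Dlx1 and Dlx2 encode homeobox factors that direct forebrain precursors to the GABAergic fate, and they lie 9426 bases apart on chromosome 2, facing each other. Dlx1 (chr2:71528113-71533981) was at 27.3, 29.6 and 32.5 CPM in young sham and at 19.3, 27.2 and 23.9 CPM in young ICH mice. The highest young ICH sample lay just under the lowest young sham sample, and the log2FC of −0.34 ± 0.15 (SE) had an unadjusted *P* of 0.0444 and an adjusted *P* of 0.139 by edgeR. In aged mice Dlx1 was at 28.003, 23.5 and 32.3 CPM after sham surgery and at 26.1, 26.5 and 20.0 CPM after ICH, which overlapped. Dlx2 lay between 2.73 and 4.21 CPM in all 12 samples, with a log2FC of −0.19 ± 0.16 in young and −0.15 ± 0.16 in aged mice, neither past the threshold. An antisense transcript, Dlx1as, spans the whole of Dlx1, had 65 to 142 reads per sample and changed by −0.52 ± 0.21 in young mice, which did not pass after adjustment. The sources do not say whether reads were counted by strand, so reads of Dlx1 and Dlx1as may have been mixed or left out.

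Of 16 other transcription factors of this lineage 0 were upregulated at either age by edgeR. Downregulated were 2 in young mice (9.23% of all genes were) and 1 in aged mice (6.15% of all genes), shares near those of all genes. Etv1, which is expressed in neuroblasts and in some mature neurons, fell by 0.44 on the log2 scale in young mice. Dlx5, Dlx6, Sp8 and Sp9 passed in neither. The median log2FC over the 16 was −0.14 in young and −0.24 in aged mice.

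Dcx encodes doublecortin, the microtubule protein of migrating neuroblasts by which they are most often identified. It was at 35.5, 48.6 and 42.8 CPM in young sham and at 26.0, 33.6 and 28.1 CPM in young ICH mice. In aged mice it was at 40.02, 35.3 and 38.9 CPM after sham surgery and at 32.7, 29.995 and 35.0 CPM after ICH. All ICH samples lay below all sham samples of the same age, by a small margin in both. The log2FC was −0.53 ± 0.12 (SE; adjusted *P* = 0.0122) in young mice, to 0.692 times the sham level, and −0.22 ± 0.12 (adjusted *P* = 0.250) in aged mice. Without young sham replicate 2, the library with the highest Dcx level, the young change was −0.42 (adjusted *P* = 0.0581, edgeR). The interaction of 0.31 ± 0.17 had an unadjusted *P* of 0.0995, so that a weaker fall in aged mice was not established.

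Tubb3 was at 287, 255 and 281 CPM in young sham and at 234, 192 and 192 CPM in young ICH mice. It was at 212, 230 and 204 CPM in aged sham and at 196, 202 and 194 CPM in aged ICH mice. The young sham samples thus lay above all 9 others, and the aged ICH samples lay just under the aged sham samples. The log2FC was −0.41 ± 0.08 (SE; adjusted *P* = 0.00703) in young and −0.13 ± 0.08 (adjusted *P* = 0.350) in aged mice. The interaction of age and ICH was 0.29 ± 0.12 (unadjusted *P* = 0.0336, adjusted *P* = 0.9999 by edgeR). Tubb3 was the 1 gene of the 9 under 0.05 before adjustment, as were 2.82% of all genes, and 0 of the 21495 genes passed after it, or 0%. DESeq2 called 0 of the 9 for the interaction and 1 gene in all. Tubulin genes share long stretches of sequence, so that the split of reads between them is uncertain, and an annotated read-through gene over Tubb3, Gm20388, had 0 reads in all 12 samples.

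**Figure D2:**
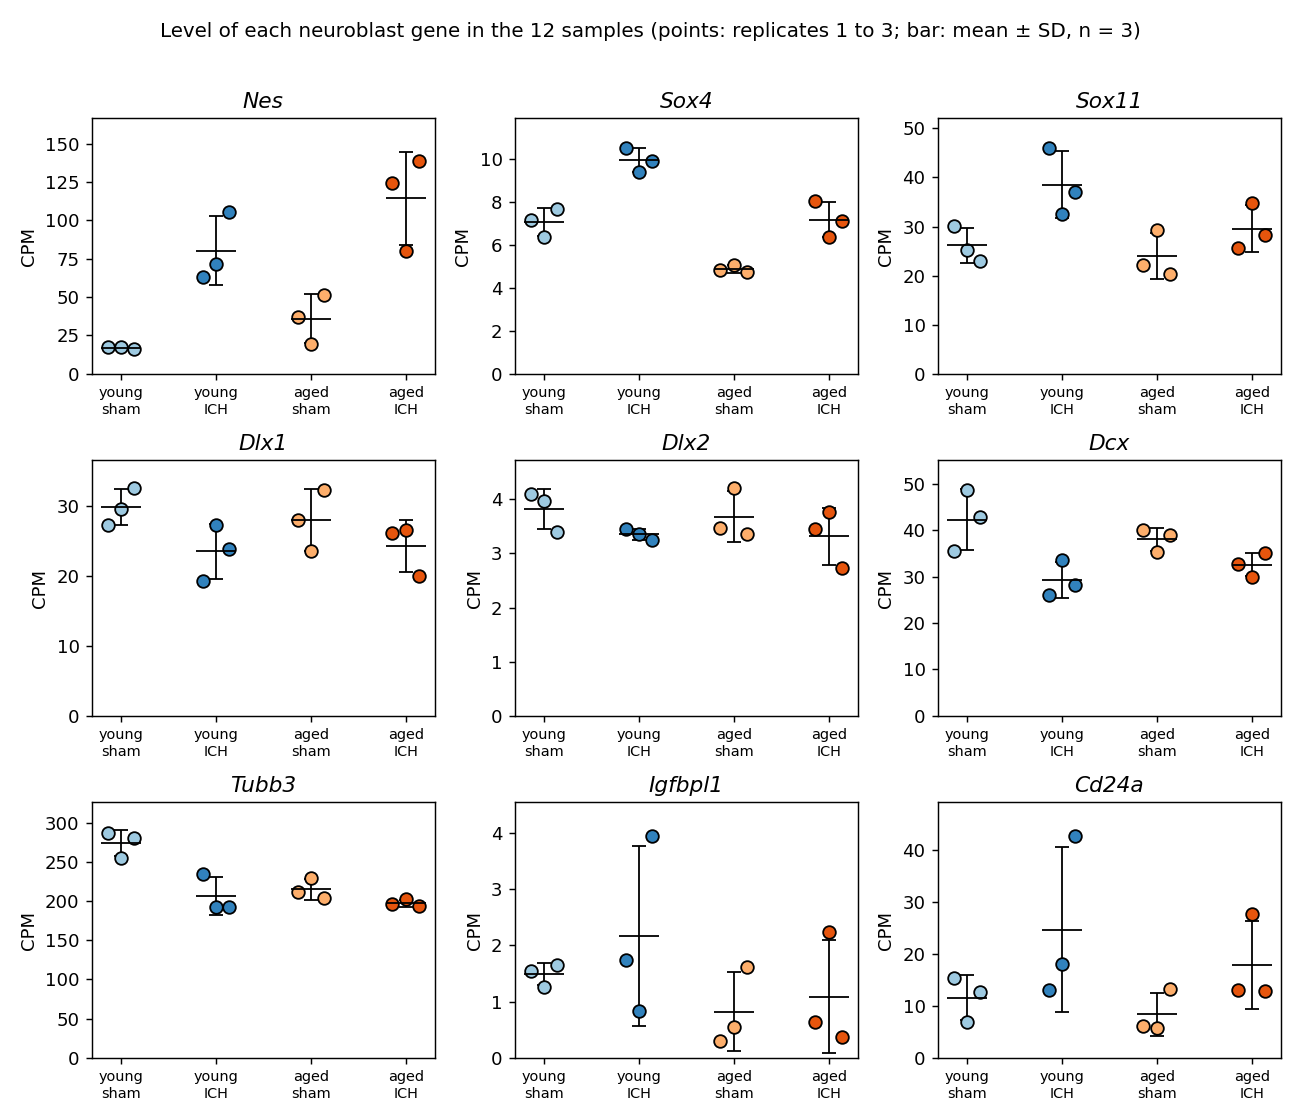
CPM of each of the 9 genes (vertical axes, each from 0) in the 4 groups, with 1 point per sample and a bar with whiskers for mean ± SD (n = 3). Nes and Sox4 rose after ICH without overlap at both ages, Dcx and Tubb3 fell in young mice, and Igfbpl1 and Cd24a each had 1 sample well above the others in 3 groups (aged sham and both ICH groups).

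Part of the other genes of the cytoskeleton of growing neurons fell as Dcx and Tubb3 did in young mice. Of 19 genes of that list, 9 fell and 1 rose after ICH at the young age, where 9.23% of all genes fell and 9.89% rose. At the old age 5 fell and 1 rose, against 6.15% and 7% of all genes. Dclk1, a kinase related to doublecortin, fell from 1072 ± 49.97 to 651 ± 48.9 CPM (SD, n = 3) in young and from 864 ± 62.9 to 564 ± 50.6 CPM in aged mice. Its log2FC was −0.72 ± 0.09 (SE) and −0.62 ± 0.09. Pafah1b1, the lissencephaly gene Lis1, changed by −0.42 and −0.33, its partner Ndel1 by −0.33 and −0.22, and the microtubule protein Map1b by −0.53 and −0.50, all past the threshold. Tubb2b, a tubulin of young neurons and glia, was the 1 gene upregulated, by 0.56 ± 0.11 in young and 0.54 ± 0.11 in aged mice. Tuba1a, Dpysl3 and Marcksl1 had higher means after ICH at both ages too, but did not pass. Several of the genes that fell, Dclk1 and Map1b among them, are abundant in mature neurons too.

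Some markers of mature neurons fell in young mice as well. Of 10 genes of mature neurons 3 fell in young mice, Syt1 and Map2 among them, against 9.23% of all genes. In aged mice 1 fell, close to the 6.15% of all genes. The 10 genes of striatal projection neurons had a median log2FC of −0.95 in young and −1.11 in aged mice, but 0 of them passed, and their summed level ranged from 1822 to 3097 CPM in young sham and from 535 to 1765 CPM in young ICH mice. It ranged from 1560 to 2729 CPM in aged sham and from 347 to 1980 CPM in aged ICH mice, and the ranges of sham and ICH samples overlapped in aged mice. Of 10 genes of striatal interneurons, Sst and Lhx6 fell at both ages, against 9.23% of all genes in young and 6.15% in aged mice. The part of mature neurons in the change of Dcx and Tubb3 was not tested.

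Genes of migration and guidance gave 3 upregulated and 9 downregulated members of 23 at the young age, against 3 and 8 at the old age. Of all genes 9.89% were upregulated and 9.23% downregulated at the young age, and 7% and 6.15% at the old age. Itgb1 and Itga6, which encode an integrin pair that binds laminin, rose by 0.50 ± 0.10 and 0.60 ± 0.11 (SE) on the log2 scale in young and by 0.40 ± 0.10 and 0.44 ± 0.11 in aged mice. The chemokine receptor Cxcr4 rose from 1.61 ± 0.415 to 3.57 ± 0.713 CPM (SD, n = 3) in young and from 2.08 ± 0.936 to 4.69 ± 0.822 CPM in aged mice. These 3 genes are also made by endothelial cells and leukocytes. Erbb4, the receptor of neuregulin on neuroblasts and interneurons, changed by −0.68 ± 0.08 in young and −0.66 ± 0.08 in aged mice, and Robo2, a receptor of the repellent Slit proteins, by −0.77 ± 0.09 and −0.52 ± 0.09. Reelin (Reln), which detaches neuroblasts from their chains, changed by −1.19 ± 0.19 and −0.87 ± 0.19. The netrin receptor Dcc had the strongest fall of the list, from 8.68 ± 2.60 to 2.45 ± 0.392 CPM in young and from 5.94 ± 1.51 to 2.21 ± 1.57 CPM in aged mice.

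**Figure D3:**
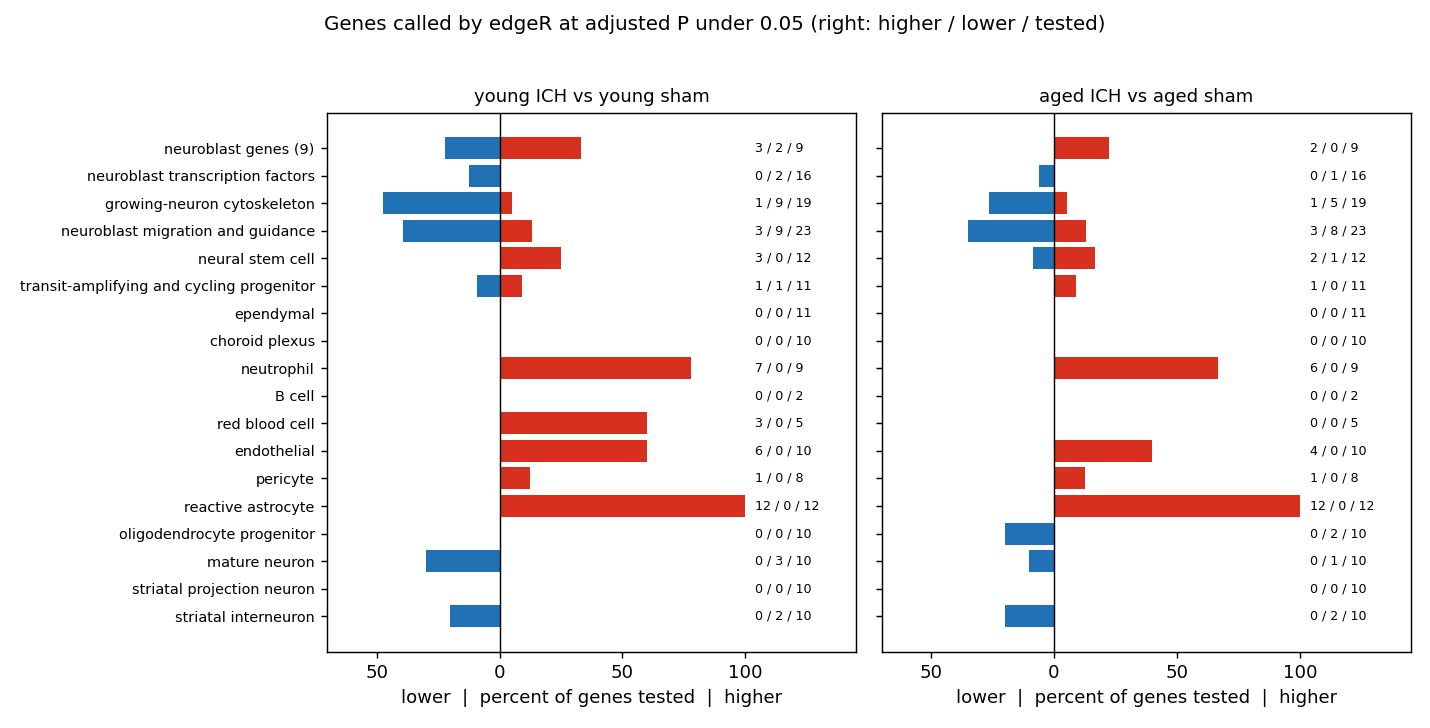
Percent of the tested genes of each list that rose (to the right) or fell (to the left) after ICH at an adjusted P under 0.05 (edgeR), with the counts of higher, lower and tested genes beside each bar. All 12 reactive astrocyte genes rose at both ages, while the cytoskeleton list had 9 lower genes in young and 5 in aged mice and the migration list 9 and 8.

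Igfbpl1 and Cd24a, the other 2 members, were set apart by their spread within groups. Igfbpl1, a secreted protein related to the IGF-binding proteins and a marker of neuroblasts, was at 1.55, 1.27 and 1.65 CPM in young sham and at 1.74, 0.832 and 3.94 CPM in young ICH mice. In aged mice it was at 0.298, 0.539 and 1.62 CPM after sham surgery and at 0.641, 2.23 and 0.377 CPM after ICH. The groups overlapped at each age, and counts as low as 9 reads in a sample limited the precision. The log2FC was 0.54 ± 0.68 (SE; adjusted *P* = 0.622) in young and 0.37 ± 0.75 (adjusted *P* = 0.788) in aged mice.

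Cd24a was at 15.3, 6.88 and 12.6 CPM in young sham and at 13.1, 18.1 and 42.9 CPM in young ICH mice. It was at 6.16, 5.83 and 13.2 CPM in aged sham and at 13.1, 27.8 and 12.9 CPM in aged ICH mice, and the groups overlapped at both ages. The log2FC was 1.09 ± 0.49 (SE; adjusted *P* = 0.145) in young and 1.09 ± 0.50 (adjusted *P* = 0.174) in aged mice. The change was larger than that of Sox4, and so was its error. The unadjusted *P* was 0.0473 in young and 0.0504 in aged mice.

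The highest samples of both genes were those with the most ependymal RNA. The summed level of 11 ependymal genes, Foxj1 and Rarres2 among them, was 97.7 CPM in young ICH replicate 3, against 25.2 and 27.4 CPM in the other young ICH samples, and 50.3 CPM in aged ICH replicate 2, against 29.8 and 19.2 CPM. It was highest in replicate 1 of the young sham group, at 42.7 CPM, and in replicate 3 of the aged sham group, at 41.9 CPM. The same library was the highest of its group for Cd24a in 4 of 4 groups and for Igfbpl1 in 3 of 4. It was so in 2 of 4 for each of Sox11, Dlx1, Dlx2, Nes and Tubb3, and in 0 of 4 for Dcx and for Sox4. Genes of the choroid plexus, the tissue that floats in the ventricle, were high in 3 of the ICH samples, with a summed level of 6246 CPM in young ICH replicate 3 against 211 and 274 CPM, and 2297 and 2782 CPM in aged ICH replicates 1 and 2 against 231 CPM. Of the ependymal and the choroid plexus genes 0 passed in any comparison by edgeR.

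These libraries were therefore left out in an alternative that was chosen after seeing the data, 1 in each group. The log2FC of Cd24a in young mice was then 0.68 (adjusted *P* = 0.144, edgeR), that of Igfbpl1 was −0.17, and that of Cd24a in aged mice was 1.11 and passed (adjusted *P* = 0.0311). With 2 samples in a group, Nes kept its change (1.99 in young and 2.21 in aged mice), as did Dcx (−0.62, adjusted *P* = 0.0281) and Sox11 (0.70, adjusted *P* = 0.0484) in young mice. Sox4 (0.50, adjusted *P* = 0.0763) and Tubb3 (−0.33, adjusted *P* = 0.0828) in young mice no longer passed. How far the dissection reached the ventricle is not recorded in the labels, and its part in the levels of Cd24a and Igfbpl1 was not tested.

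**Figure D4:**
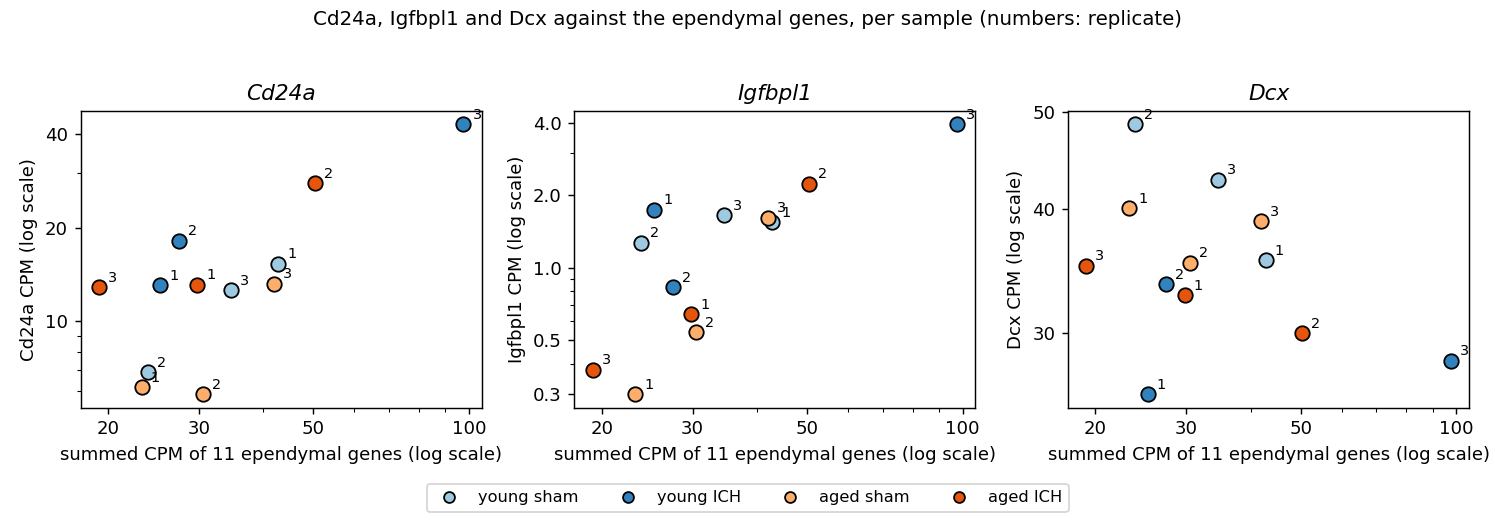
CPM of Cd24a, Igfbpl1 and Dcx (vertical axes) against the summed CPM of 11 ependymal genes (horizontal axis), all on log scales, with 1 point per sample, colors for groups and replicate numbers beside the points. Young ICH replicate 3, at 97.7 CPM of ependymal genes, had the highest Cd24a (42.9 CPM) and Igfbpl1 (3.94 CPM) of all samples, and Dcx showed no such rise.

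Age alone was then compared, in mice with sham surgery and in mice with ICH. In aged sham vs. young sham mice 0 of the 9 genes passed by edgeR, against 0.102% of all genes, while 3 had an unadjusted *P* under 0.05 (12.3% of all genes) and DESeq2 called 2. Those 3 were Sox4, with a log2FC of −0.53 ± 0.12 (SE; adjusted *P* = 0.158), Tubb3 with −0.35 ± 0.08 (adjusted *P* = 0.185) and Nes with 1.08 ± 0.31 (adjusted *P* = 0.224). In all 3 the aged and the young sham samples did not overlap, as in 21% of all genes. DESeq2 called Sox4 (adjusted *P* = 0.0125) and Tubb3 (adjusted *P* = 0.0144). By the fold criterion 1 of the 9 (Nes) would be counted, against 3.72% of all genes. The other 6 genes overlapped, with Dcx at −0.15 ± 0.12 and Sox11 at −0.13 ± 0.17.

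In aged ICH vs. young ICH mice 0 of the 9 passed by edgeR, against 0.0558% of all genes, while 2 had an unadjusted *P* under 0.05 (9.54% of all genes) and DESeq2 called 1. Sox4 was lower in every aged sample, with a log2FC of −0.47 ± 0.12 (SE; adjusted *P* = 0.220, and 0.0360 by DESeq2), and Sox11 was at −0.38 ± 0.17 (adjusted *P* = 0.509) with overlap. Sox4 alone of the 9 was without overlap, as were 13.3% of all genes. Dcx was at 0.16 ± 0.12 and Tubb3 at −0.06 ± 0.08, which differed by less than the spread between samples. Igfbpl1, at −1.02 ± 0.70, had the widest error.

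**Figure D5:**
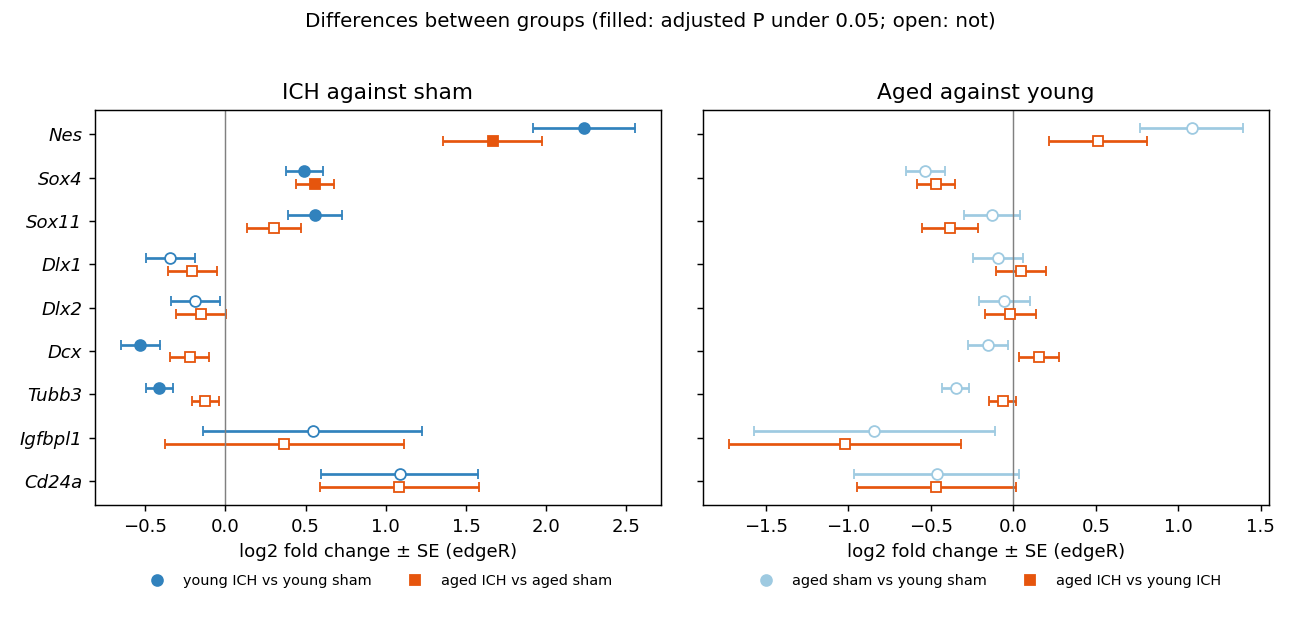
log2FC ± SE (horizontal axes) of the 9 genes for ICH against sham at each age (left) and for aged against young mice at each surgery (right), from edgeR, with filled symbols where the adjusted P was under 0.05. The filled symbols are Nes, Sox4, Sox11, Dcx and Tubb3 for the young and Nes and Sox4 for the aged comparison, and all symbols on the right are open.

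When the effect of age was averaged over both surgeries, which uses all 12 samples, 1 of the 9 genes passed, against 1.27% of all genes. This was Sox4, at −0.50 ± 0.08 (SE; adjusted *P* = 0.0193, edgeR), or 0.707 times the young level. Every aged sample lay below every young sample of the same surgery. The call was lost without any 1 of 5 libraries (replicate 1 of young ICH, 3 of young sham, 3 of aged ICH, and 1 and 3 of aged sham), with adjusted *P* values of 0.0506 to 0.0629 and a log2FC of −0.50 to −0.47, and the size of the difference hardly moved. Nes (0.80 ± 0.22, adjusted *P* = 0.0895), Tubb3 (−0.21 ± 0.06, adjusted *P* = 0.104) and Sox11 (−0.26 ± 0.12, adjusted *P* = 0.290) did not pass by edgeR, while DESeq2 called Nes and Tubb3 beside Sox4. The Sox4 call was also lost when the library with the most ependymal RNA was left out of each group (−0.45, adjusted *P* = 0.107).

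Of the 19 genes of the cytoskeleton list, 5 were lower in aged mice in the averaged comparison and 0 higher, against 1.27% of all genes in either direction. Nrep, a protein of regenerating neurons, was at 76.7 ± 15.4 CPM (SD, n = 3) in young sham, 59.4 ± 3.15 in young ICH, 43.2 ± 5.16 in aged sham and 35.5 ± 5.97 in aged ICH mice. Its log2FC for age was −0.78 ± 0.11 (SE). Dpysl3, a partner of tubulin in growth cones, had −0.54 ± 0.07, the actin bundler Fscn1 −0.36 ± 0.05, Marcksl1 −0.53 ± 0.09 and Tuba1a −0.25 ± 0.05. The lists of neuroblast transcription factors, migration genes, stem cells and dividing precursors gave 0 calls for age in the averaged comparison. Outside this lineage, 1 of 10 genes of oligodendrocyte precursors was lower in aged mice, the receptor Gpr17, which fell by 1.44 on the log2 scale.

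The genes whose levels were most like that of Dcx, and of Nes, over the 12 samples were sought among 16814 genes with a mean of at least 1 CPM, as a description. For Dcx they were Drp2, Htt, Dmd, Zfp318 and Rabgap1l, with Pearson's *r* of log2 CPM from 0.947 to 0.982 and Spearman's rho from 0.881 to 0.986. The highest was Drp2, with 0.990 over the 6 sham samples and 0.952 over the 6 ICH samples, and 0.967 without the 2 samples whose Dcx lay farthest from the median. None of the other 8 neuroblast genes could enter this search. For Nes they were Plek, Il13ra1, Clcf1, Atf3 and C3ar1, with *r* from 0.989 to 0.994. Plek, a protein of leukocytes and platelets, had 0.990 over the sham and 0.963 over the ICH samples. All points share libraries and scaling, and these values carry no test.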

How the data were processed

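Per the study's methods, the authors aligned paired reads to GRCm38.p6 with HISAT2 and ran featureCounts. For each of 12 pooled samples they deposited raw counts of 54833 genes and FPKM, a value scaled to transcript length and mapped reads. Strand and multi-mapping settings were not found, so Dlx1, Sox4 and Tubb3, which overlap other annotated genes, and tubulins are uncertain to that extent. Groups and replicate numbers came from the labels. Counts were tested with edgeR 4.0.16 (quasi-likelihood, TMM, filterByExpr with a minimum count of 10, all 12 samples, 4 groups, R 4.3.3), with Benjamini-Hochberg adjustment over 21495 genes and a threshold of 0.05. SE was taken as the size of log2FC over the root of its F statistic. CPM use TMM-scaled totals, and likeness used a prior count of 2. Recovery was tested on simulated data. Alternatives were DESeq2 1.42.0, RLE scaling, no filter, 2 groups per fit, a replicate block, the study's FC criterion and left-out samples. The FC criterion was applied to edgeR's log2FC and unadjusted *P*, where the study used DESeq2. Positions are from GENCODE vM21 and promoters from RefSeq. The 9 genes, the 17 other lists and the naming rule (all 9 members, the called genes of each list, up to 4 where more passed, and up to 2 defining markers where none did) were chosen with earlier results of these data known. A few other genes were named for contrast after their values were seen. The authors' own comparisons were not used, and depth was given per sample as total counts, with whole reads behind each CPM. Some genes of the lists are counted but not reported by name here.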

Additional observations from a re-analysis of the deposited data

How the results depend on the processing

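Of the log2FC values recomputed under an alternative, 579 kept their direction and their side of the threshold, 21 became weaker, 12 stronger and 18 turned in sign. The count of the 9 genes that passed was 5 in young ICH vs. young sham mice, and it was 2 by the FC criterion of the study, 3 without the highest ependymal library of each group (added after seeing the data) and 2 to 5 when 1 library was left out, the lowest without young sham replicate 2. In aged ICH vs. aged sham mice the 2 became 1 by the FC criterion and 1 to 2 when 1 library was left out, the lowest without aged ICH replicate 1, and 3 (Sox4, Cd24a and Nes) without the highest ependymal library of each group. For aged sham vs. young sham mice the 0 became 2 by DESeq2 and 1 by the FC criterion, and for aged ICH vs. young ICH mice it became 1 by DESeq2. For age averaged over surgery the 1 became 3 by DESeq2, 2 with no filter on low counts, 0 without the highest ependymal library of each group, and 0 to 2 when 1 library was left out. The FC criterion used the log2FC and the unadjusted P of edgeR, not those of DESeq2 as in the study. It added Cd24a in young mice and Nes in aged sham vs. young sham mice. The cause of these moves was not tested.

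Without the highest ependymal library of each group, the log2FC of Igfbpl1 in young ICH vs. young sham mice was −0.17, those of Sox11 and Dlx2 in aged sham vs. young sham mice were 0.091 and 0.062, that of Dlx1 in aged ICH vs. young ICH mice was −0.010, and the interaction of Nes was 0.22. Leaving out 1 library gave Igfbpl1 a log2FC of −0.20 to 0.93 in young and −0.69 to 1.35 in aged mice after ICH. In aged sham vs. young sham mice the range was −0.21 to 0.019 for Dlx1 and −0.16 to 0.0089 for Dlx2. In aged ICH vs. young ICH mice it was −0.077 to 0.17 for Dlx1, −0.11 to 0.10 for Dlx2, −0.93 to 0.20 for Cd24a and −0.11 to 0.038 for Tubb3, and the interaction of Sox4 ranged from −0.025 to 0.14. None of these was past the threshold.

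With the replicate number as a block, the same numbers of genes passed (5, 2, 0, 0, 1 and 0 in the 6 comparisons, the first 2 being those of ICH), and the log2FC of Dcx in young mice was −0.53. The numbers gave no clear sign of pairing. The correlation of deviations from group means between samples of the same number ran from −0.454 to 0.235 over 12 pairs. It was higher than with the other numbers in 3 of the 12. With 3 samples per group this cannot exclude that samples of the same number shared a step of the work. Over all genes, DESeq2 called 280 for aged sham vs. young sham, 189 for aged ICH vs. young ICH and 1082 for averaged age, where edgeR called 22, 12 and 273. RLE scaling moved the median of all genes by less than 0.01 on the log2 scale. Depth limits Igfbpl1, with 9 to 125 reads per sample, and Dlx2, with 87 to 148, more than the other genes.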

Other observations

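Within each group, the order of the 3 samples by Dcx was also their order by the summed level of 5 red blood cell genes, hemoglobins among them, in 4 of 4 groups. Dcx was highest in young sham replicate 2, young ICH replicate 2, aged sham replicate 1 and aged ICH replicate 3, where the red blood cell sum was 22.4, 121, 39.5 and 82.0 CPM, against 5.20 to 7.36, 29.0 to 52.2, 27.8 to 36.8 and 24.3 to 29.8 CPM in the other samples of these groups. This was the 1 pair with the same order in every group among 153 pairs of a neuroblast gene and a gene list, it was picked out after the values were seen, and no pair had the opposite order in all 4. Dcx fell after ICH while this sum rose in young mice, from 5.20 to 22.4 CPM in sham to 29.0 to 121 CPM in ICH samples, so that the order within groups and the difference between groups had opposite signs. The summed level of 10 genes of mature neurons had the same order as Dcx in 3 of 4 groups and the same highest library in 4 of 4, and that of 10 genes of oligodendrocyte precursors had the opposite order in 3 of 4. Tubb3 differed from Dcx here, with the order of the mature neuron sum in 0 of 4 groups and the opposite order in 2 of 4. Between Dcx and Tubb3, Spearman's rho of the deviations from group means was −0.832 over the 12 samples.

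The summed level of 9 neutrophil genes was 10.8 to 13.0 CPM in young sham, 22.3 to 41.5 in young ICH, 15.2 to 27.1 in aged sham and 40.2 to 55.8 in aged ICH mice. Nes had the same order of group means, and so had the summed level of the reactive astrocyte genes. Within groups, the order of the 3 samples by Nes was that of the neutrophil sum in 0 of 4 groups. Of these genes 7 rose in young and 6 in aged mice after ICH, against 9.89% and 7% of all genes. With age averaged over surgery 3 (Retnlg, Ngp and Ltf) were higher, where 1.27% of all genes passed in either direction. In young sham mice their means were 0.0106, 0.0694 and 0.00921 CPM, and in aged ICH mice 1.40, 1.18 and 0.769 CPM. These 3 calls thus rest on a baseline near 0 reads, and the size of the difference is not firm. Of 6 B cell genes only 2 had enough reads to be tested, and 0 passed in any comparison by edgeR.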
